A study of Mus musculus with 6 samples.

Results

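The SLAM family receptors and their SAP adaptors were examined in 6 microarrays of natural killer (NK) cells from mouse spleen. Members were taken by gene symbol: the receptors and ligands Cd244 (listed as Cd244a), Slamf6, Slamf7, Ly9, Cd84, Cd48 and Slamf1, and the adaptors Sh2d1a and Sh2d1b1. All 9 genes had a probe set, 1 each, among the 19938 genes tested. The mice were C57Bl/6 and 8 to 12 weeks old, and their cells were sorted as YFP+, CD27+, NK1.1+ and CD3- straight after harvest. The labels name 2 genotypes with 3 arrays each, 15a/16-1FKO (the knockout in what follows) and Ctrl, and cells of both were YFP+. The driver of the recombinase and of YFP, and whether animals were pooled, are not given in the sources used here. Arrays of 1 genotype are described as technical replicates, and p-values measure the spread between these arrays alone.

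NK cells kill virus-infected and tumour cells without prior immunisation. SLAM family receptors are immunoglobulin-like proteins on blood cells, and most of them bind a copy of themselves on a neighbouring cell. Their cytoplasmic tails carry tyrosine motifs that bind SAP or EAT-2, small adaptors made mainly of an SH2 domain. With the adaptors bound, the receptors promote activation of NK cells, and without them the same receptors can recruit phosphatases and inhibit killing.

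The contrast of the genotypes asks which transcripts of CD27+ NK cells differ when miR-15a and its neighbour Mir16-1 are deleted. The mature strands of the deleted genes are shown with a strand of the related Mir15b cluster, which lies on another chromosome, because the microRNAs share their seed. Mature miR-16 is also made from Mir16-2, in that related cluster. RefSeq gives them on GRCm38.p6 at chr14:61632075-61632096 (minus strand) for miR-15a, chr14:61631936-61631957 (minus strand) for miR-16 and chr3:69009775-69009796 (plus strand) for miR-15b. The capitals mark the seed, bases 2 to 8.
mmu-miR-15a-5p: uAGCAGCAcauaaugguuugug
mmu-miR-16-5p: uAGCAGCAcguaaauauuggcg
mmu-miR-15b-5p: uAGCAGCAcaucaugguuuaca

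The labels matched the deleted locus at Mir15a. The log2 level of Mir15a was 4.37, 3.53 and 3.43 in the knockout arrays and 7.14, 6.02 and 6.69 in the Ctrl arrays. Mir16-1, the other deleted gene, was dim, with means of 2.76 in the knockout and 3.39 in the Ctrl arrays. Its difference was -0.63 (SE 0.19), with an adjusted limma p of 0.999. Of all genes tested, 0.0201% passed an adjusted p of 0.05 (limma with Benjamini-Hochberg adjustment over 19938 genes, used throughout). All 10 NK markers tested, among them Ncr1, Eomes and Cd27, lay above a log2 level of 4.13. Under that level lay 95% of olfactory receptor genes, and it is used here as the background. Of the 19938 genes, 10892 lay above it, so this alone does not set NK genes apart. The mean of the 10 NK markers was between 9.99 and 10.25 in every array. Sex-linked transcripts differed within genotypes. Xist, expressed from the inactive X chromosome of females, had a log2 level of 3.89 in Ctrl array 2 and of 7.56 to 9.65 in the other 5 arrays. The Y-linked Eif2s3y was at 2.33 in Ctrl array 1 and at 6.18 to 7.95 in the others. The Ctrl arrays thus did not hold the same mix of sexes, which goes against technical replicates of 1 RNA sample. Ctrl array 1 had high Xist with low Eif2s3y and Ctrl array 2 the reverse, so these arrays held different animals. The knockout arrays and Ctrl array 3 read above background for both transcripts, which takes cells of both sexes. What else separates the arrays of a genotype is not known here, so their SD and n = 3 may cover differences between animals as well as technical ones.

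None of the 9 members passed the threshold, and none separated the genotypes completely. Adjusted p was 0.999 for each of them. In simulated data with each gene's own spread, the fit called 1.6% of genes given a log2 difference of 0.5. It called 49% of those given a difference of 1, so a missing call does not show equal levels. Many genes were given a difference at once there, which eases the adjusted threshold, and the shares average over genes of every spread. Where few genes differ the shares would be lower, so they are not the power for a member in these data. Genotypes did not overlap in 8.33% of all genes and in 0 of the 9 members. An unadjusted limma p under 0.05 was reached by 1 member, Slamf6, against 3.47% of all genes in either direction. Slamf6 was higher on average in the knockout, the direction of 1.55% of all genes at that p. In the other 8 members the mean difference was under 0.25 on the log2 scale. The 5 receptors Cd244a, Slamf7, Ly9, Cd84 and Cd48 had signals well above background and 95% intervals of the difference within 1 log2 unit. Positive differences (knockout minus Ctrl) were found for 5 members and negative ones for 4, with a median of 0.09 beside -0.01 over all genes. In sorted bulk samples, fewer cells expressing a gene and less RNA per cell cannot be told apart.

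**Figure D1:**
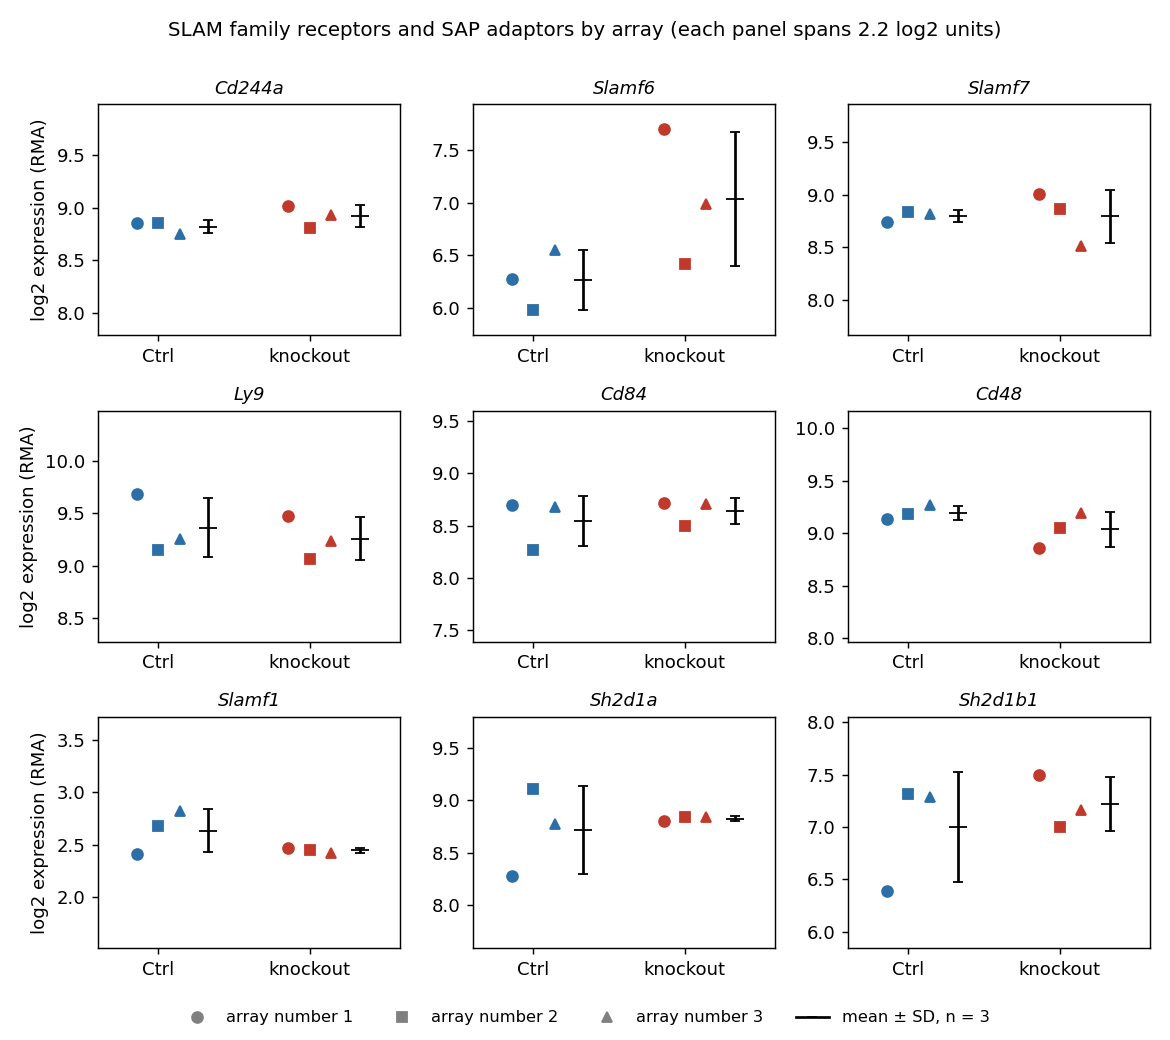
Log2 expression of each member in the 3 Ctrl (blue) and 3 knockout (red) arrays, with marker shapes for the array number and bars for the mean ± SD (n = 3). Each panel spans the same height, so that the spread can be compared between genes; Slamf6 has the widest spread and no panel shows genotypes apart.

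Slamf6, called Ly108 in mice and NTB-A in humans, binds itself between cells and acts as a costimulatory receptor through SAP. Its log2 level was 7.70, 6.42 and 6.99 in the knockout arrays and 6.27, 5.98 and 6.55 in the Ctrl arrays. Knockout array 1 stood highest by a wide margin, whereas knockout array 2 lay below Ctrl array 3, so the genotypes overlapped. The means were 7.04 ± 0.64 and 6.27 ± 0.29 (SD, n = 3 arrays each), a difference of 0.77 (SE 0.29, 95% interval 0.12 to 1.42), or 1.70-fold. The limma fit gave an unadjusted p of 0.0253 and an adjusted p of 0.999. Permuting the arrays exactly, on both sides, gave p = 0.2, where 0.1 is the smallest value that 3 against 3 allow.

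The difference of Slamf6 was large among all genes, and so was its spread. A difference of at least this size, in either direction, was found in 0.236% of all 19938 genes, those under background included. That share was not taken among genes above background alone. Its SD within genotypes, 0.50, was larger than that of 96.7% of the 10892 genes above background. Without knockout array 1 the difference was 0.44 (unadjusted p = 0.0941 by limma), and without knockout array 2 it was 1.08 (unadjusted p = 0.00217), the adjusted p staying above 0.99 in both. Unadjusted p also exceeded 0.05 without Ctrl array 1 (limma, 0.0531) or Ctrl array 2 (0.0889). The genotypes stopped overlapping when knockout array 2 or Ctrl array 3 was left out. With Xist minus the Y-linked transcripts as a covariate the difference stayed at 0.77.

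**Figure D2:**
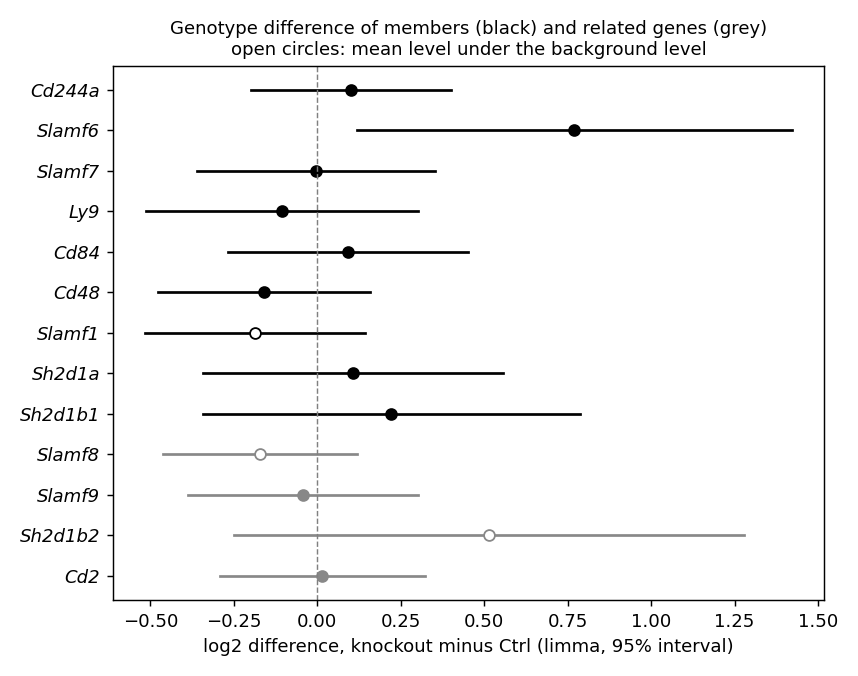
Log2 difference (knockout minus Ctrl) with its 95% interval from limma for the 9 members (black) and 4 related genes (grey); open circles mark genes whose mean level lay under the background. Only the interval of Slamf6, 0.12 to 1.42, leaves out 0, before any adjustment for the number of genes.

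Because Slamf6 had the largest difference of the family, its promoter is shown. RefSeq places it at chr1:171917212-171917511 on GRCm38.p6 (plus strand), from 250 bases before to 50 after the start. Because c-Myb, a transcription factor, appears in the title of the series, the MYB core AACNG was searched on both strands, and its match is in capitals.
Slamf6: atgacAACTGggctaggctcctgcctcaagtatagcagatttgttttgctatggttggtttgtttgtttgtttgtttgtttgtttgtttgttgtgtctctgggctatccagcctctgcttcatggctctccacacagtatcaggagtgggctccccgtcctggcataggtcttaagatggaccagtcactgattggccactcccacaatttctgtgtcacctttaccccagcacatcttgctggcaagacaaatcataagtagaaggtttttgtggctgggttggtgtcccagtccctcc
The single match begins 245 bases before the start. Promoters were matched for 7 members. Of these, Sh2d1b1, Cd244a, Slamf7 and Cd48 held 4 matches each, Slamf1 and Cd84 held 2, and Slamf6 had the fewest. The core is common, with at least 1 match in 80.3% of the 32851 promoters of that length and a median of 2. The T-box core GGTGTGA, searched because Eomes and Tbx21 are the T-box factors of NK cells, was found on either strand in the promoter of Cd48 alone among these 7, and in 3.98% of all promoters. These matches describe letters and not binding.

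Cd244a encodes 2B4, the NK cell receptor for CD48, which activates or inhibits killing depending on the adaptors it binds. Its log2 level was 9.02, 8.81 and 8.93 in the knockout arrays and 8.85, 8.86 and 8.75 in the Ctrl arrays. The 6 arrays lay within 0.27 of each other, the narrowest range of the family. Its difference was 0.10 (SE 0.13), with a 95% interval of the fold from 0.872 to 1.32.

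Cd48 encodes the ligand of 2B4, a protein anchored in the membrane by a lipid and without a cytoplasmic tail. The knockout arrays read 8.86, 9.05 and 9.19 and the Ctrl arrays 9.14, 9.18 and 9.27 on the log2 scale. Knockout array 1 was the lowest, but knockout array 3 lay above 2 of the Ctrl arrays. The difference was -0.16 (95% interval -0.48 to 0.16). Cd2, the receptor that also binds CD48 and a gene outside the 9, differed by 0.02 (SE 0.14). Ligand and both partners thus had differences whose intervals held 0.

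Slamf7, also called CRACC, binds itself and signals in NK cells through EAT-2. Its log2 level was 9.01, 8.86 and 8.51 in the knockout arrays and 8.73, 8.84 and 8.82 in the Ctrl arrays. Knockout arrays held both the highest and the lowest value. The difference was -0.0042 (SE 0.16, 95% interval -0.36 to 0.35), the smallest of the family, and 0.14 without knockout array 3.

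Ly9 and Cd84 encode further receptors that bind themselves and use SAP. Ly9 was at 9.48, 9.06 and 9.23 in the knockout and at 9.69, 9.15 and 9.25 in the Ctrl arrays, so that array 1 was the brightest in each genotype. Its difference of -0.11 (SE 0.18) became 0.056 without Ctrl array 1. Cd84 was at 8.71, 8.50 and 8.71 in the knockout and at 8.69, 8.27 and 8.68 in the Ctrl arrays. A single low value, Ctrl array 2, set its difference of 0.09 (SE 0.16), which was -0.045 without that array.

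Slamf1 encodes CD150, known from T cells, B cells and blood stem cells. Its log2 level lay between 2.41 and 2.82 in all 6 arrays, under the background level, so its difference of -0.19 (SE 0.15) was measured where the array hardly separates levels. The other 8 members lay above background.

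The adaptor SAP, encoded by Sh2d1a on the X chromosome, recruits the kinase Fyn to the receptors, and its loss causes an X-linked lymphoproliferative disease in humans. Its log2 level was 8.80, 8.84 and 8.84 in the knockout arrays and 8.28, 9.11 and 8.77 in the Ctrl arrays. The knockout arrays were within 0.04 of each other in these values while the Ctrl arrays spread above and below them. The difference was 0.11 (SE 0.20, 95% interval -0.34 to 0.56). Among all 6 arrays, Ctrl array 1 had the lowest Sh2d1a and the highest Xist (9.65), and Ctrl array 2 the highest Sh2d1a and the lowest Xist (3.89). The part of these transcripts in the spread of Sh2d1a was not tested. With them as a covariate the genotype difference was 0.11.

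EAT-2, encoded by Sh2d1b1, is the second adaptor of NK cells and links Slamf7 and 2B4 to calcium signalling. Its log2 level was 7.50, 7.00 and 7.16 in the knockout arrays and 6.39, 7.31 and 7.29 in the Ctrl arrays. Ctrl array 1 was far below the other 5. The difference was 0.22 (SE 0.25, 95% interval -0.34 to 0.79). Without Ctrl array 1 it was -0.080 for Sh2d1b1 and -0.11 for Sh2d1a, so for both adaptors that array set the sign. Sh2d1b2, the neighbouring mouse adaptor ERT, had a mean under the background level in both genotypes and a difference of 0.51 (SE 0.34).

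**Figure D3:**
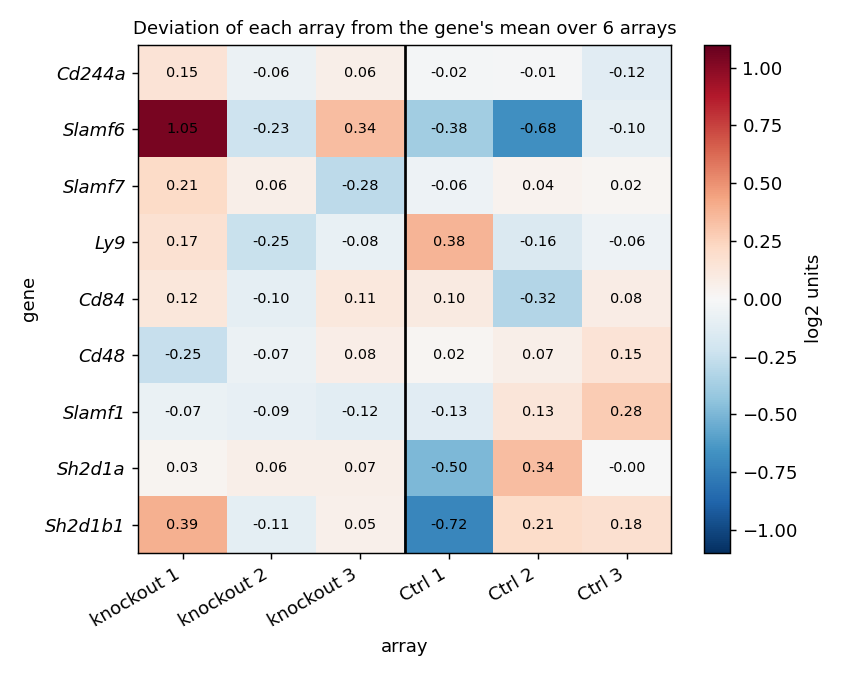
Deviation of each array from the gene's mean over the 6 arrays, in log2 units, for the 9 members (rows) and the knockout and Ctrl arrays (columns, split by the black line). The cells furthest from 0 are Slamf6 in knockout array 1 (1.05) and Sh2d1b1 in Ctrl array 1 (-0.72).

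Single arrays held the highest or lowest value for more than 1 member. Knockout array 1 was the highest of the 6 for 5 members, namely Cd244a, Slamf6, Slamf7, Cd84 and Sh2d1b1, and the lowest for Cd48. Ctrl array 1 was the lowest for Slamf1, Sh2d1a and Sh2d1b1 and the highest for Ly9. Some of these margins were small. Cd84 was at 8.715 in knockout array 1 and 8.707 in knockout array 3. Slamf1, under background, was at 2.412 in Ctrl array 1 and 2.423 in knockout array 3. How often each array was highest or lowest over all genes was not counted. Over the 6 arrays, Slamf6 had Pearson r = 0.75 with Cd244a, 0.66 with Cd84 and -0.67 with Cd48, and between -0.32 and 0.48 with the other 5. These points share their arrays and genotypes and are given as a description.

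Genes whose pattern over the 6 arrays was most like that of Slamf6 were taken from the other 10891 genes above background. They were Mettl25 (r = 0.99), Emb, Thoc2l, Srek1 and Ptpn2 (each r = 0.98). Emb, a membrane glycoprotein, had a genotype difference of 0.43 (SE 0.18) and Mettl25 one of 0.42 (SE 0.18). Thoc2l, Srek1 and Ptpn2 differed by 0.22, 0.17 and 0.24. With 6 arrays high values of r are common, and 83 genes had r of at least 0.9.

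In the GRCm38.p6 gene table, 7 members lie next to each other among the measured protein-coding genes of chromosome 1, in the order Cd244a, Ly9, Slamf7, Cd48, Slamf1, Cd84 and Slamf6. Slamf6 is at the edge of the run. Of the 10 nearest measured neighbours, 5 on each side, 0 were called, beside 0.0201% of all genes. Among them 6 had positive differences and 4 negative. Vangl2, the gene next to Slamf6, was under background and differed by -0.03 (SE 0.14), and Cd84 on its other side by 0.09. The neighbours with the smallest p were Alyref2 at -0.39 (SE 0.20), Usf1 at 0.28 (SE 0.17), Pex19 at 0.38 (SE 0.34) and Ncstn at 0.19 (SE 0.25).

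**Figure D4:**
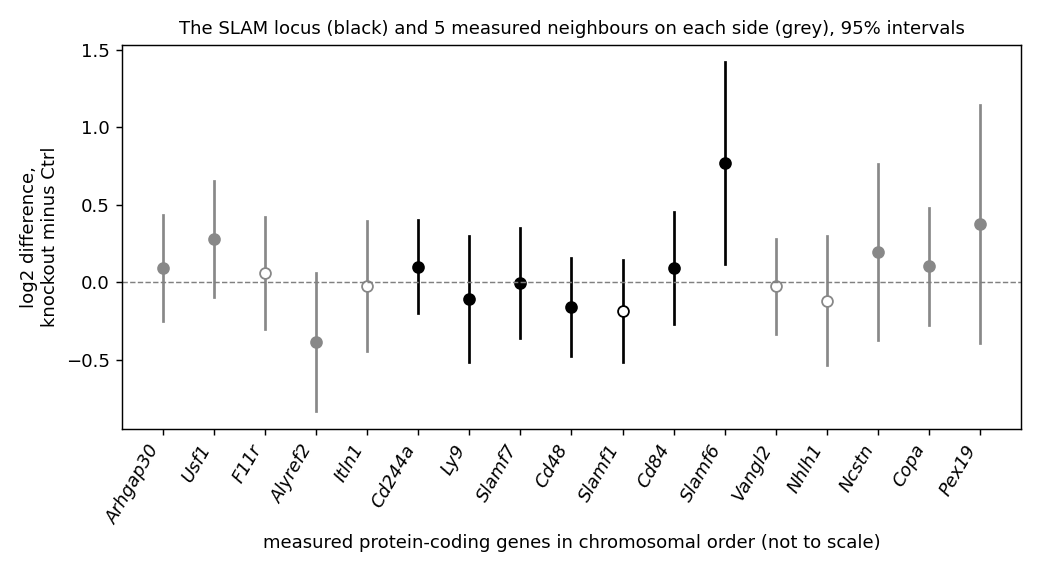
Log2 difference (knockout minus Ctrl, limma, 95% interval) of the 7 members of the SLAM locus (black) and the 5 nearest measured protein-coding genes on each side (grey), in chromosomal order and not to scale. Open circles lie under the background level; Slamf6 at the right edge of the locus differs by 0.77, its neighbours Cd84 and Vangl2 by 0.09 and -0.03.

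The rest of the pathway did not differ past the threshold either. Of 27 related and signalling genes with a probe set of their own, 0 were called, beside 0.0201% of all genes. An unadjusted limma p under 0.05 was reached by 0 of them, beside 3.47% of all genes. Their differences were positive for 17 and negative for 10, with a median of 0.04. Slamf8 and Slamf9, family members that do not use the SAP adaptors, differed by -0.17 (SE 0.13) and -0.04 (SE 0.15), and Slamf8, under background, was the 1 gene of these 27 without overlap between genotypes, beside 8.33% of all genes.

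Genes downstream of the receptors included some with larger differences than every member but Slamf6, and none was called. Fyn, the kinase recruited by SAP, was at 9.37, 9.13 and 8.87 in the knockout and at 9.42, 9.16 and 8.97 in the Ctrl arrays, a difference of -0.06 (SE 0.18). The exchange factor Vav1 differed by 0.05 (SE 0.18) and phospholipase Plcg2 by -0.11 (SE 0.18). The phosphatases that bind the receptors when adaptors are missing differed by -0.13 (SE 0.16) for Ptpn6, by -0.06 (SE 0.14) for Ptpn11 and by 0.13 (SE 0.16) for Inpp5d. Those with the smallest p in the list were the docking proteins Dok2 at 0.32 (SE 0.17) and Dok1 at 0.41 (SE 0.24), followed by Bcl10 at 0.43 (SE 0.28) and Pik3r1 at -0.16 (SE 0.14).

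SLAM receptors are also carried by T cells, B cells, myeloid cells, platelets and blood stem cells, so markers of these were read beside the members. Adjusted p was above 0.99 by limma for each marker in this and the next paragraph. Of 10 T cell markers, 6 had positive and 4 negative differences, and their mean log2 level was 5.69 to 5.97 in the knockout and 5.71 to 5.84 in the Ctrl arrays. The mean was 5.69 in knockout array 1, where Slamf6 was highest, and 5.71 in Ctrl array 2, where Slamf6 was lowest. This mean mixes 5 markers above background with others under it, so it does not measure T cell content. What T cells added to the level of Slamf6 was not tested. The cells were sorted as CD3-, and the CD3 subunit genes lay above background. Means in knockout and Ctrl arrays were 6.24 and 6.43 for Cd3e and 7.41 and 7.25 for Cd3d. For Cd3g they were 6.90 and 6.78. Which cells these transcripts came from was not tested. Thy1 and Cd28 lay above background too, and Cd4, Cd8a, Cd8b1, Cd5 and Cd6 under it. Cd28 read higher in every knockout array than in any Ctrl array, by 0.43 on average (SE 0.14). Genotypes did not overlap, in either direction, in 8.33% of all genes.

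The 7 B cell markers had a mean of 3.73 to 4.02 in the knockout and 3.66 to 4.20 in the Ctrl arrays. Cd79b, Cd22 and Pax5 lay above background, and the other 4, Ms4a1 and Cd79a among them, under it. Mean levels of 9 myeloid markers were 4.25 to 4.35 in the knockout and 4.32 to 4.43 in the Ctrl arrays. Itgax and Lyz2 lay above background and the other 7, including Csf1r and Adgre1, under it, where the class II gene H2-Ab1 differed by -0.58 (SE 0.20). The 5 platelet markers had means of 3.56 to 3.72 and 3.64 to 3.76, with Gp9 and Itga2b above background and Pf4, Ppbp and Gp5 under it. Gp5 differed by -0.36 (SE 0.13), without overlap between genotypes. The myeloid marker Siglech, under background, did not overlap either and differed by -0.17 (SE 0.13). Of the 4 progenitor genes, Kit was higher in all 3 knockout arrays than in any Ctrl array, by 0.69 (SE 0.17). Cd34 differed by -0.33 (SE 0.20), Gata2 by -0.06 and Meis1 by 0.11. The separation seen for Gp5, Siglech and Kit was found, in either direction, in 8.33% of all genes. The part of these cells in the members' levels was not tested.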

How the data were processed

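Log2 values of 35556 probe sets on 6 Affymetrix arrays were used as deposited. Per the submitters' processing notes the tools were Partek 6.6 and RMA, in no stated role, and RMA includes background subtraction and quantile normalization. No genome build is stated in the sources used here. Arrays carry no read depth, and their number limits the precision.

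Probe sets with 1 symbol in GEO's platform annotation (21789) were used, the brightest for each gene. Genotypes were compared over all 19938 genes with limma 3.58.1 in R 4.3.3 (lmFit, eBayes, two-sided, no covariate, Benjamini-Hochberg adjustment, threshold 0.05), tested on simulated data. All differences are knockout minus Ctrl. No filter on dim genes was applied, and RMA compresses the differences of dim genes.

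The members and lists were chosen with earlier results of these data known. Named beside the members are the related genes, the 4 signalling genes and the 4 locus neighbours with the smallest p, 10 preset genes, and the 5 genes most correlated with Slamf6. For markers of other cells, NK cells and sex the naming departed from this rule and was chosen after their values were seen. Alternatives were array centring, a second quantile normalization, a filter on dim genes, array weights, a replicate block, a variance prior that was trended and robust, a sex-linked covariate, other probe sets and leaving out each array.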

Additional observations from a re-analysis of the deposited data

How the results depend on the processing

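Under all 15 alternatives 0 of the 9 members and 0 of the 27 related and signalling genes passed the threshold, and Cd244a, Cd48, Slamf1 and Slamf6 kept their direction in each alternative that could be run. Leaving out 1 array moved Cd48 to between -0.24 (without knockout array 3) and -0.075 (without knockout array 1). Cd244a moved to between 0.050 (without knockout array 1) and 0.16 (without knockout array 2). Slamf1 moved to between -0.30 (without Ctrl array 1) and -0.096 (without Ctrl array 3). Slamf1 was not in the table filtered on dim genes. The other probe sets, the replicate block, the trended prior and that filter could not change a member's estimate, so they do not bear on its direction. Slamf6 lay between 0.44 and 1.08 over the alternatives, with an unadjusted limma p under 0.05 in 12 of 15. The exceptions all came from leaving out 1 array, namely knockout array 1, Ctrl array 1 or Ctrl array 2. Leaving out 1 array gave 2 to 3 called genes in the whole table instead of 4, 0 to 1 members with an unadjusted p under 0.05 and 0 to 3 members without overlap of genotypes; the smaller groups by themselves make such separation easier. With the sex-linked covariate 2 genes were called. Leaving out 1 array turned the sign of Cd84 (range -0.045 to 0.17), Ly9 (-0.22 to 0.056), Sh2d1a (-0.11 to 0.30), Sh2d1b1 (-0.080 to 0.38) and Slamf7 (-0.11 to 0.14), and centring the arrays turned Slamf7 to 0.0048; the cause was not tested. With the replicate number as a block (replicate block) 3 genes were called in the whole table, none of them a member, and Slamf6 had an unadjusted limma p of 0.00642 (adjusted p = 0.999). Same-numbered arrays correlated in their deviations from the genotype means with r = 0.12, 0.21 and 0.18 over the 10892 genes above background and with r = 0.05, 0.15 and 0.14 over all genes, and each array correlated best with its own number in both sets, a hint from the data and not from the design. Between same-numbered arrays Slamf6 differed by 1.43, 0.44 and 0.44, and Cd84 was positive and Cd48 and Ly9 negative in each. Because the first correlation passed 0.1 in one set of genes and not in the other, the numbers were not taken as pairs.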
